A study of Mus musculus with 14 samples.

Results

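The early genes described here are 10 transcription factor genes of 3 families that T cells switch on after stimulation of the T cell receptor (TCR), namely Egr1, Egr2 and Egr3, Nr4a1, Nr4a2 and Nr4a3, and the AP-1 genes Fos, Fosl2, Jun and Junb. They are 10 of the 18193 genes that the array annotation gives as the single gene of a probe set, a group of probes against 1 transcript. The 10 genes have 21 probe sets, and 19 of these, with at least 1 for every gene, passed the filter on low values, a mean log2 intensity of at least 5 over the 14 arrays. The other 2, 1433423_at of Nr4a2 and 1421079_at of Nr4a3, did not pass. The genes were chosen by measured values of these same arrays, in particular the difference between the treatments at 72 h, which was known. Values of the 10 genes at 72 h and over time are therefore given as a description. Where the fit across all probe sets called them at 72 h, the call is printed without a p-value and supports nothing.

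RNA came from murine Th1 rep cells, which are CD4+ T cells of OT-II mice (TCR transgenic, specific for a peptide of ovalbumin) aged 6 to 10 weeks that had been polarized with IL-12 and an antibody against IL-4 and stimulated repeatedly on irradiated antigen presenting cells. All cells were then incubated with an antagomir, a cholesterol-coupled antisense oligonucleotide, at 1 µM and reactivated with plate-bound antibodies against CD3 and CD28. Antagomir-31 is directed against miR-31 and Antagomir-SCR is its unspecific control. The groups were Antagomir-31 and Antagomir-SCR at 36 h (2 arrays each), Antagomir-31 and Antagomir-SCR at 48 h (2 arrays each) and Antagomir-31 and Antagomir-SCR at 72 h (3 arrays each). In every group the cells carried the same transgenic TCR and had gone through the same stimulations, and a group without an antagomir was not analysed here. No label states that replicates of a group were grown as separate cultures. P-values therefore reflect the spread among arrays within groups alone, and this may be technical. The fit pooled this spread over all 6 groups and moderated it by that of the other probe sets.

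Immediate early genes are transcribed within minutes of TCR engagement without new protein synthesis. ERK kinase signalling acts on ternary complex factors and serum response factor (SRF) at CArG boxes in the promoters of Egr and Fos genes, and calcium signalling acts on Nr4a promoters through MEF2, NFAT and CREB family proteins. EGR proteins are zinc finger factors that bind GC-rich sites, NR4A proteins are orphan nuclear receptors, and AP-1 is a dimer of a JUN with a FOS or related protein. In T cells EGR2, EGR3 and the NR4A factors are known for their part in anergy and hyporesponsiveness, and JUN and FOS partner with NFAT at cytokine genes such as Il2.

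To show the letters to which this background refers, promoter windows of RefSeq on GRCm38.p6 were read. They span 250 bases before to 50 after the start of transcription. No window of Egr1 or Egr3 was used, and the counts below cover windows of the 8 other early genes. Those of the 3 Nr4a genes and Egr2 are printed here, because they hold most of the matches found and because these genes were lower together at 72 h. Capitals mark TGACG on either strand, the core letters of a CREB and AP-1 type site, and in Egr2 also the CArG box.
Nr4a1 (chr15:101266596-101266895, plus strand): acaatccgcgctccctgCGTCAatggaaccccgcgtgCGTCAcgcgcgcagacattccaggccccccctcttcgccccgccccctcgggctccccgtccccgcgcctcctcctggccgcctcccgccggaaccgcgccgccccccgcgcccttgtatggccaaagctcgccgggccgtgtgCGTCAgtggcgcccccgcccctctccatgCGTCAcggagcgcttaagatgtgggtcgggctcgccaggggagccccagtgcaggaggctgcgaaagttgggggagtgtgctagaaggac
Nr4a2 (chr2:57123954-57124253, minus strand): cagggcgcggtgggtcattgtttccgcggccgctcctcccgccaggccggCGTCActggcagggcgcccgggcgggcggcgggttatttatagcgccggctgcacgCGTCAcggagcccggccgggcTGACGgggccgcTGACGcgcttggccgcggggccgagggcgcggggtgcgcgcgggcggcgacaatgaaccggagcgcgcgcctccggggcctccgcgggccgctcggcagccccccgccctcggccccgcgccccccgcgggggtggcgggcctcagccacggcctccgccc
Nr4a3 (chr4:48045055-48045354, plus strand): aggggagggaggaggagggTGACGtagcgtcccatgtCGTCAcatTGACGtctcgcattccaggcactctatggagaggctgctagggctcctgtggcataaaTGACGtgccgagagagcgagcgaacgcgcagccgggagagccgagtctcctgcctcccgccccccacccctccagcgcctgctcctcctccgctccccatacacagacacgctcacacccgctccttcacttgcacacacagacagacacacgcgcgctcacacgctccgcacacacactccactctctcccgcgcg
Egr2 (chr10:67537619-67537918, plus strand): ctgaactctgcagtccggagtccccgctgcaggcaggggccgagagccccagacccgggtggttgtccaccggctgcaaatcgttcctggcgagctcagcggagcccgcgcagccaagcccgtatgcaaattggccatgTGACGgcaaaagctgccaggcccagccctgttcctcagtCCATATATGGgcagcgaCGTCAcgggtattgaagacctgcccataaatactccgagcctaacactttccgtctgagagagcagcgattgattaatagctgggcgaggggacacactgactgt
Matches to TGACG numbered 4 in each of the 3 Nr4a windows, 2 in Egr2 and 2 in Fos, 1 in Junb and 0 in Jun and Fosl2. Of the 5 annotated windows of Egr2, 3 held a match, and none held more TGACG and CArG matches together than the one printed. Of all 32851 windows, 20.8% held at least 1 match, 5.01% at least 2 and 0.231% at least 4. A CArG box lay in the window of Egr2, in 4 of its 5 annotated windows, and in 1.63% of all windows. The window of Fos held 0 CArG boxes. Sequence outside the windows was not searched, so boxes farther upstream would be missed. The EGR site GCGGGGGCG, searched on both strands, was found in Nr4a1 and Fosl2, with 2.91% of all windows holding it. Neither TGACGTCA (1.79% of windows), TGANTCA (7.81%), GCGTGGGCG (0.612%) nor the NR4A site AAAGGTCA (1.51%) was found in the windows of these 8 genes, TGACGTCA being a longer form that holds TGACG. For Egr2 this covers the printed window alone. A match is a description of the letters and not a site of binding.

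The oligonucleotide that separates the treatments is directed against miR-31, whose mature sequence in RefSeq is given with the seed, bases 2 to 8, in capitals.
mmu-miR-31-5p (chr4:88910614-88910635, minus strand): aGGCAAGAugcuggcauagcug
The level of miR-31 was not analysed here. Of the 421 putative miR-31 targets that the study listed, 0 were among the 10 early genes.

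The deposited values are linear intensities normalized by RMA, and log2 was taken for differences. The mean of an array lay within 232 to 235 at 36 h, within 223 to 224 at 48 h and within 266 to 267 at 72 h. Arrays of 1 time were thus close and arrays of different times were not, as after a separate normalization of each time, and time, normalization and array batch cannot be told apart. Relative to 48 h, the median of the 17590 fitted probe sets was shifted by 0.35 on the log2 scale at 72 h on deposited values and by 0.027 after quantile normalization over all 14 arrays, so that differences between times are given here on the quantile scale. The 3' to 5' log2 ratio of the actin control probe sets, a sign of RNA quality, lay within 0.32 to 0.43 at 36 h, within 0.37 to 0.41 at 48 h and within 0.21 to 0.27 at 72 h. That of the GAPDH control probe sets ran the other way, within -0.046 to -0.028 at 36 h, within -0.024 to -0.012 at 48 h and within -0.0052 to 0.088 at 72 h. All 9 measured T cell and Th1 markers passed the filter. Of the markers of other cells, 1 of 5 for B cells, 3 of 6 for macrophages and monocytes, 2 of 5 for dendritic cells and 1 of 5 for CD8 T and NK cells did so. Their highest single value was 75.3 for Csf1r, the receptor of macrophage colony stimulating factor. Of the 5 B cell markers, Cd79a and Cd79b of the B cell receptor lay between 12.9 and 18.5. Ms4a1 lay between 9.14 and 25.6, Pax5 between 16.3 and 41.9 and Cd22, which passed the filter, between 20.9 and 49.7. In bulk RNA, fewer cells of a type and less RNA per cell cannot be told apart.

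Between 48 h and 72 h, 7 of the 10 genes were lower in both treatments, namely all 3 Egr genes, all 3 Nr4a genes and Fos. Fosl2 was lower and Jun and Junb were higher, each by less than the limit of the call. A difference between times was called where the arrays of both times did not overlap on deposited values, on quantile-normalized values and as percentile ranks within an array, and where it was at least 1 log2 unit on the deposited and the quantile scale. By this call 11 of the 19 probe sets were lower and 0 higher at 72 h, where 2.15% of all fitted probe sets were lower and 2.75% higher. The filter took the mean over all 14 arrays, so a probe set low at 72 h could pass through its earlier values. At 72 h the mean log2 of Fos was 4.16 under Antagomir-SCR and 4.24 under Antagomir-31, both below 5. For Egr2 1427682_a_at it was 4.85 and 4.94 in the same order. All counts between times given here depend on this filter, and its part in them was not tested. Between 36 h and 48 h 0 of the 19 were called, where 0.0455% of all were lower and 0.0739% higher. On deposited values alone and with no limit of size, the arrays of 48 h lay below those of 36 h for 12 of the 19 probe sets and above them for 1, against 27.5% and 14.3% of all. The arrays of 72 h lay below those of 48 h for 12 and above them for 5, against 11.6% and 64.6% of all. The median over the brightest probe sets of the 10 genes was -0.14 for 48 h minus 36 h and -2.99 for 72 h minus 48 h on the quantile scale, against medians of -0.0030 and 0.027 over all probe sets.

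**Figure D1:**
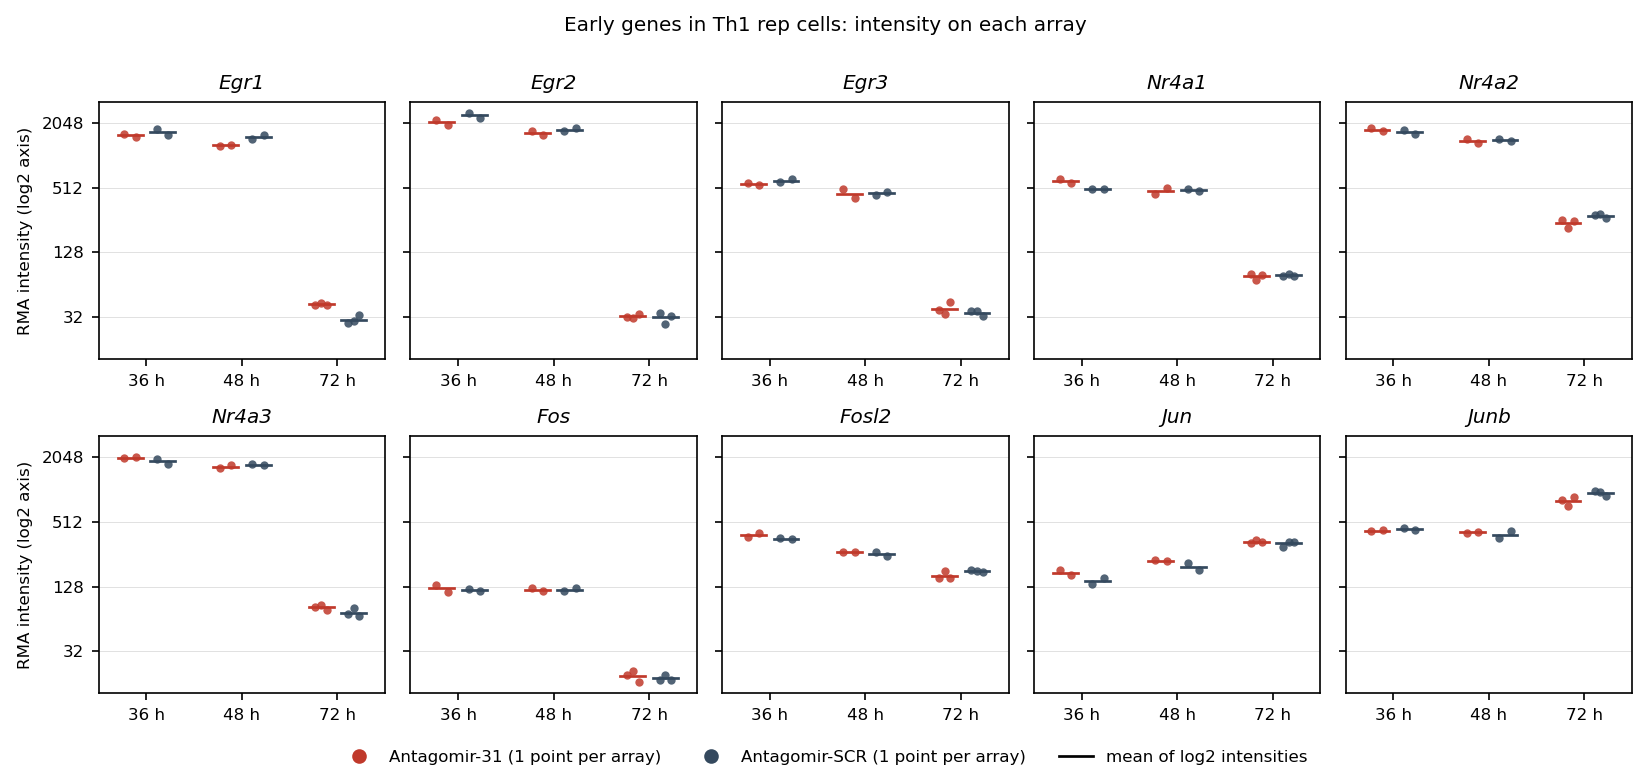
Deposited RMA intensity (log2 axis) of the brightest probe set of each early gene on all 14 arrays, by time and treatment, with bars at the mean of log2 intensities. Egr1, Egr2, Egr3, Nr4a1, Nr4a2, Nr4a3 and Fos lie lower at 72 h than at 48 h in both treatments, whereas Junb lies higher.

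Egr1, the zinc finger factor after which the family is named, had intensities of 1631 and 1528 with Antagomir-31 and 1791 and 1579.7 with Antagomir-SCR at 36 h. At 48 h it had 1270.2 and 1272 with Antagomir-31, against 1455 and 1596 with Antagomir-SCR. At 72 h it had 41.7, 43.7 and 41.7 with Antagomir-31, against 28.2, 29.3 and 33.6 with Antagomir-SCR. All arrays of 36 h and 48 h were thus far above all arrays of 72 h, and the treatments did not overlap at 48 h, where Antagomir-31 was the lower, nor at 72 h, where Antagomir-31 was the higher. The log2 difference of 72 h minus 48 h was -5.58 on the quantile scale, a 47.9-fold lower intensity at 72 h. On deposited values it was -4.91 within Antagomir-31 and -5.65 within Antagomir-SCR. As a percentile of all probe sets with 1 gene symbol on the same array, Egr1 stood within 96.6 to 97.3 at 36 h, within 96.1 to 97.0 at 48 h and within 44.1 to 53.2 at 72 h. Present and absent calls were not used here, so whether a value near the middle of an array lies above background was not tested.

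Egr2, a factor that restrains T cell activation and is needed for NKT cell development, was measured by a pair of probe sets that were both lower at 72 h. The brighter one (1427683_at) had 2210 and 1993 with Antagomir-31 and 2536 and 2313 with Antagomir-SCR at 36 h, and 1731 and 1576 with Antagomir-31 and 1734 and 1846 with Antagomir-SCR at 48 h. At 72 h it had 31.7, 31.3 and 34.3 with Antagomir-31, against 34.7, 27.7 and 33.0 with Antagomir-SCR. In this probe set the treatments overlapped at 72 h. They did not at 36 h or at 48 h, where Antagomir-31 was the lower both times, with nearest values of 1731 and 1734 at 48 h. The other one (1427682_a_at) overlapped at 48 h and not at 72 h, where it had 29.2, 31.7 and 31.4 with Antagomir-31, against 28.89, 28.92 and 28.94 with Antagomir-SCR. At 36 h it did not overlap either, with Antagomir-31 the lower. The log2 difference of 72 h minus 48 h was -6.04 on the quantile scale for 1427683_at and -5.91 for 1427682_a_at.

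Egr3, a related factor that acts with Egr2, had 572 and 545 with Antagomir-31 and 576 and 615 with Antagomir-SCR at 36 h in its brighter probe set (1436329_at). The values were 495 and 412 with Antagomir-31 and 441 and 473 with Antagomir-SCR at 48 h. They were 37.0, 34.2 and 43.8 with Antagomir-31 and 36.8, 36.0 and 32.7 with Antagomir-SCR at 72 h, which is a log2 difference of -3.95 against 48 h on the quantile scale. The other probe set (1421486_at) lay between 53.4 and 83.7 on all 14 arrays, with a difference of -0.059. The probe sets of Egr3 therefore disagree, and the change over time rests on 1436329_at.

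Nr4a1, also known as Nur77 and widely used as a reporter of TCR signal strength, has 1 probe set. It had 623 and 573 with Antagomir-31 and 504 and 497 with Antagomir-SCR at 36 h, then 446 and 514 with Antagomir-31 and 504 and 477 with Antagomir-SCR at 48 h. At 72 h it had 80.9, 71.5 and 79.4 with Antagomir-31, against 77.3, 80.5 and 77.1 with Antagomir-SCR. Arrays of 72 h were below all earlier arrays, with a log2 difference of -2.97 against 48 h on the quantile scale.

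Nr4a2, which encodes the receptor Nurr1, has 6 probe sets, of which 4 were lower at 72 h. The brightest (1455034_at) had 1836 and 1746 with Antagomir-31 and 1779 and 1638 with Antagomir-SCR at 36 h, and 1464 and 1346 with Antagomir-31 and 1453 and 1396 with Antagomir-SCR at 48 h. At 72 h the values were 257, 218 and 253 with Antagomir-31, against 283, 289 and 265 with Antagomir-SCR. Here the treatments did not overlap at 72 h, where Antagomir-31 was the lower. The 4 probe sets differed by -2.53 to -2.81 between 48 h and 72 h on the quantile scale. The probe set 1433422_at lay between 54.4 and 84.6 on all arrays, with a difference of -0.38 for 48 h minus 36 h and of -0.28 for 72 h minus 48 h, neither of them called. A further one, 1433423_at, was below the filter at 12.9 to 23.5. Of the 7 genes called lower, Nr4a2 had the smallest difference by its brightest probe set (-2.75).

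Nr4a3, the gene of the receptor NOR1, had 2015 and 2049 with Antagomir-31 and 2003 and 1761 with Antagomir-SCR at 36 h in its brightest probe set (1438796_at). At 48 h it had 1623 and 1727 with Antagomir-31, against 1765 and 1755 with Antagomir-SCR. At 72 h it had 82.6, 86.2 and 78.2 with Antagomir-31, against 70.9, 81.7 and 68.0 with Antagomir-SCR. Every array of 72 h lay below every earlier array, with a log2 difference of -4.78 against 48 h on the quantile scale. The dimmer probe set 1421080_at lay between 37.4 and 61.1 on all arrays, with a difference of 0.16. A further probe set (1421079_at), at 8.8 to 26.1, was below the filter.

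**Figure D2:**
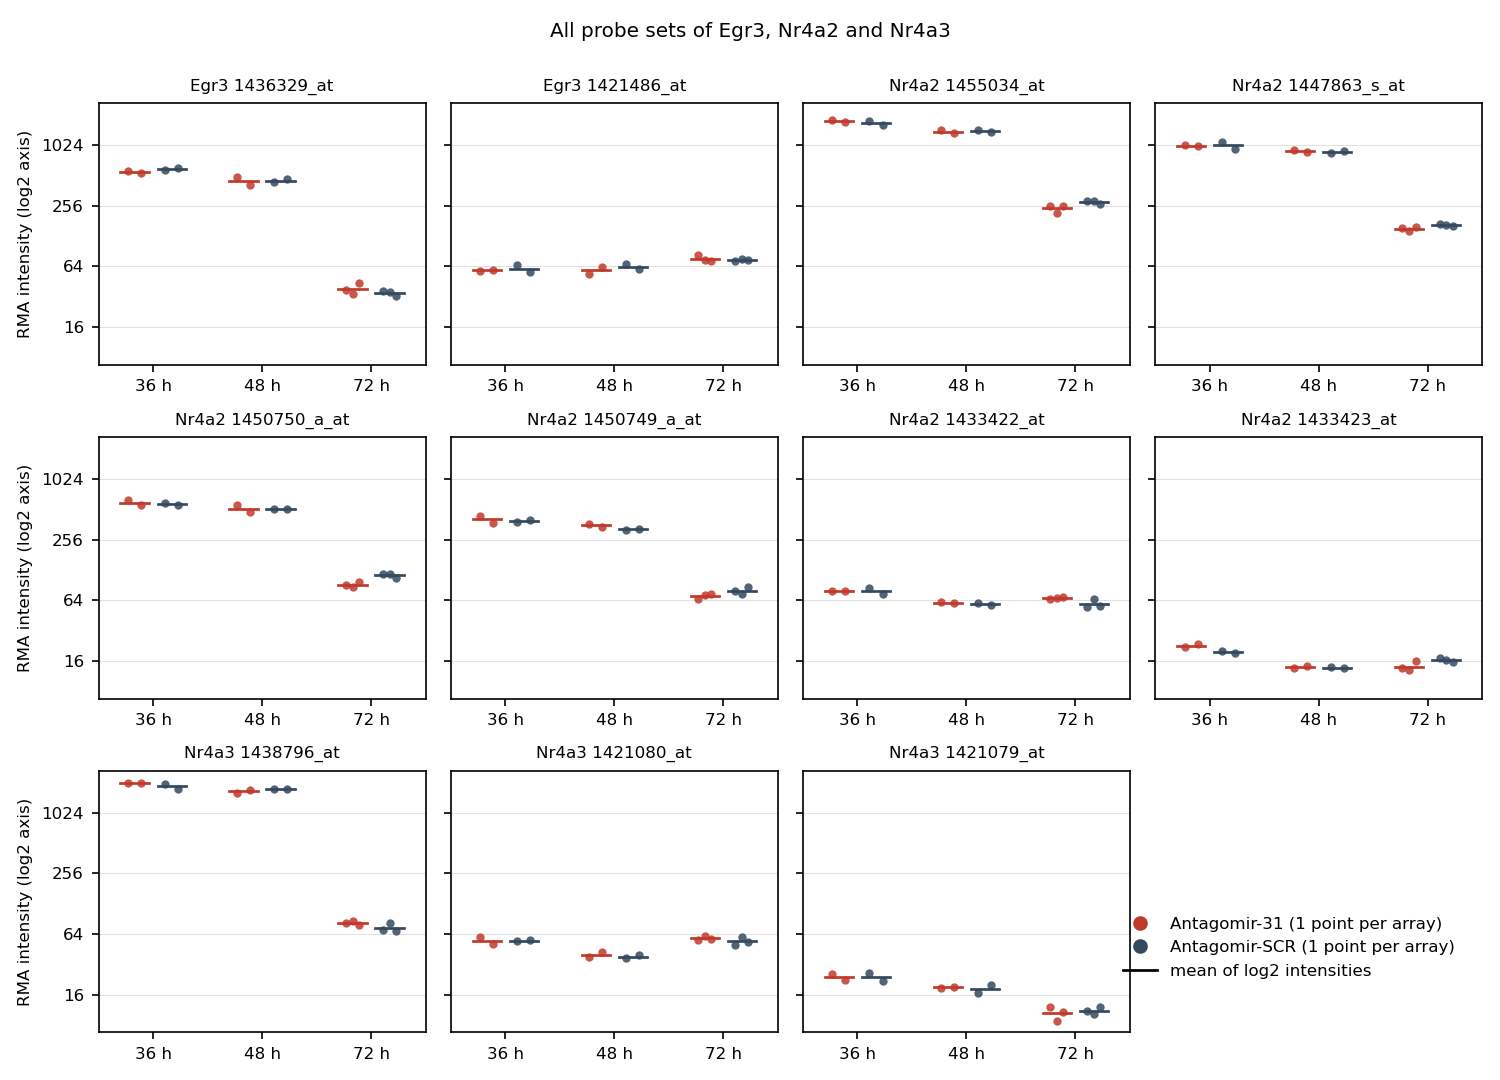
Deposited RMA intensity (log2 axis) of all probe sets of Egr3, Nr4a2 and Nr4a3 on all 14 arrays, by time and treatment, with bars at the mean of log2 intensities. Egr3 1421486_at, Nr4a2 1433422_at and Nr4a3 1421080_at lie within 37.4 to 84.6, whereas the brightest probe set of each gene is lower at 72 h.

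The AP-1 genes did not share 1 course. Fos, a partner of JUN in AP-1, had 134 and 115 with Antagomir-31 and 121 and 116 with Antagomir-SCR at 36 h, and 123 and 116 with Antagomir-31 and 116 and 124 with Antagomir-SCR at 48 h. At 72 h it had 19.2, 21.0 and 16.6 with Antagomir-31, against 17.3, 19.1 and 17.3 with Antagomir-SCR. Fos was thus level over the earlier times and lower at 72 h, with a log2 difference of -3.02 on the quantile scale.

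Fosl2, which encodes the FOS relative FRA2, had 374 and 403 with Antagomir-31 and 363 and 352 with Antagomir-SCR at 36 h (1437247_at). The values were 269.6 and 268 with Antagomir-31 and 269 and 248 with Antagomir-SCR at 48 h, and 153, 181 and 155 with Antagomir-31 and 184, 178 and 177 with Antagomir-SCR at 72 h. The arrays of the 3 times did not overlap, yet at -0.62 on deposited values and -0.97 on the quantile scale the difference of 72 h minus 48 h stayed outside the limit of 1. Its other probe set (1422931_at) differed by -0.30.

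Jun, the core subunit of AP-1, had 181 and 165 with Antagomir-31 and 134 and 155 with Antagomir-SCR at 36 h (1417409_at). It had 224 and 220.2 with Antagomir-31 and 212 and 183 with Antagomir-SCR at 48 h, and 328, 351 and 332 with Antagomir-31 and 301, 335 and 337 with Antagomir-SCR at 72 h. In this probe set Jun was higher at each later time on all arrays, by 0.42 for 48 h minus 36 h and by 0.33 for 72 h minus 48 h on the quantile scale. The dimmer probe set (1448694_at) overlapped between 36 h, at 63.7 to 76.7, and 48 h, at 68.2 to 78.6, and lay at 102 to 131 at 72 h, with quantile differences of 0.076 and 0.26. The probe sets of Jun thus disagree on the earlier interval. Junb, which pairs with BATF and FOS proteins in activated T cells, had 421 and 433 with Antagomir-31 and 446 and 431 with Antagomir-SCR at 36 h, and 404 and 415 with Antagomir-31 and 364 and 418 with Antagomir-SCR at 48 h. At 72 h it had 815, 724 and 868 with Antagomir-31, against 994, 981 and 897 with Antagomir-SCR. All arrays of 72 h were above all arrays of 48 h, by 1.13 on deposited values and by 0.86 on the quantile scale, so that Junb was called higher on deposited values alone and not on all scales.

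**Figure D3:**
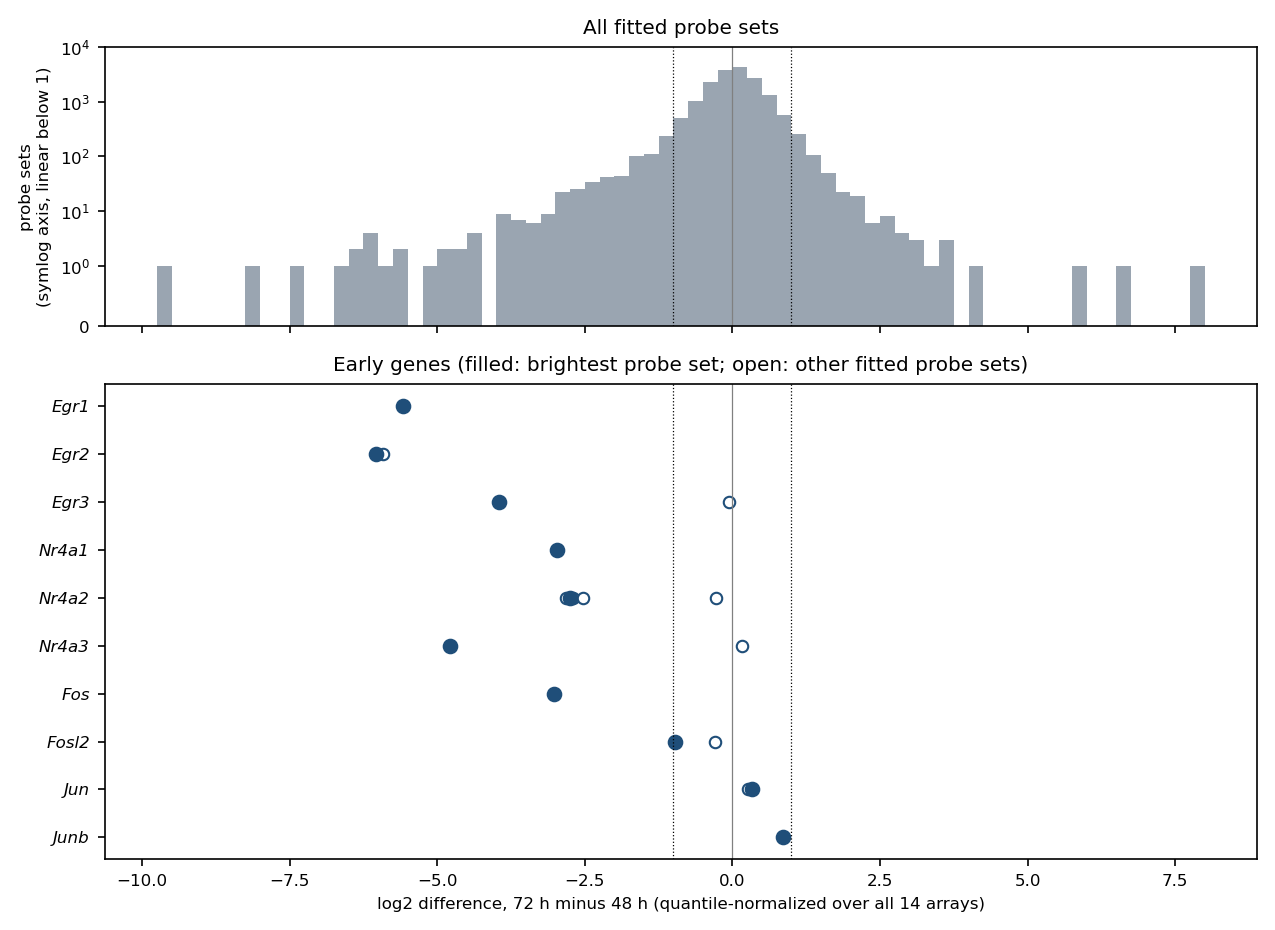
Log2 difference of 72 h minus 48 h on the quantile scale, as a histogram of all 17590 fitted probe sets (upper panel, symlog counts) and for each probe set of the early genes (lower panel, brightest filled), with dotted lines at 1 log2 unit. The 7 genes called lower span -6.04 to -2.75, and Fosl2, Jun and Junb lie inside the lines.

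Beside these differences between times, the summed intensity of the T cell and Th1 markers lay within 24341 to 25055 at 36 h, within 22755 to 23411 at 48 h and within 16608 to 17466 at 72 h. Ifng, the Th1 cytokine that makes up most of this sum, had a mean of 15490.0 at 48 h and 8481 at 72 h. Of the 11 probe sets of this list, 1 was called lower, Stat4 with means of 1142 and 264, and 0 higher. Tbx21 had means of 985 and 1747 with Antagomir-31 and of 1016 and 1855 with Antagomir-SCR. The median deposited log2 difference of the 11 was 0.27, against 0.35 over all probe sets, so the lower sum was not shared by all markers. The sums at 48 h and 72 h were 77.4 to 87.8 and 128 to 147 for B cell markers, and 199 to 214 and 224 to 241 for macrophage and monocyte markers. They were 123 to 130.0 and 147 to 162 for dendritic cell markers, and 93.4 to 97.7 and 109 to 115 for CD8 T and NK cell markers, all on deposited values. For primary Th1 cultures the study's methods take cells off the antibodies at 48 h by default, and no source used here says whether this was done for the arrays. The part of the stimulus, of cell types and of RNA quality in the changes of the early genes was not tested.

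Of the other gene lists, 6 of 25 probe sets of the TCR-induced targets of EGR and NR4A factors were lower at 72 h and 0 higher, against 2.15% and 2.75% of all fitted probe sets. These included Il2, the T cell growth factor, with 98.7 to 189.8 at 48 h and 12.9 to 18.1 at 72 h (difference -3.62 on the quantile scale). Nrgn, a calmodulin binding protein, had 137 to 151 at 48 h and 35.3 to 42.3 at 72 h (-2.19). Among the other immediate early genes 3 of 32 probe sets were lower and 2 higher, with Btg2, an antiproliferative factor, at -2.59 (1416250_at) and the zinc finger factor Klf4 at -2.30. The AP-1 relatives split, since Maff, a small MAF protein, was lower (-1.47) and Batf3, a partner of JUN proteins, was higher (1.06), with 1 of 8 probe sets each way. Of the Egr corepressors and Egr4, 0 of 4 probe sets were called. Nab2, which binds EGR proteins and is itself an Egr target, had 136 to 148 at 48 h and 62.2 to 83.5 at 72 h, a difference of -0.97 on deposited values and -1.33 on the quantile scale. The SRF, ternary complex factor and ERK list had 0 of 22 called. Median deposited log2 differences of 72 h minus 48 h were -0.30 for the TCR-induced targets, -0.11 for the other immediate early genes, 0.39 for the AP-1 relatives, 0.23 for the corepressors and 0.26 for the SRF list, against 0.35 over all probe sets.

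Whether the antagomir against miR-31 changed the early genes was asked at each time separately. At 36 h, 0 of 19 probe sets passed an adjusted p under 0.05 in limma, where 0.0114% of all fitted probe sets (2 of 17590) did. Of the 19, 2 had an unadjusted p under 0.05, and 862 of all (4.90%). Nr4a1 had a log2 fold change of Antagomir-31 over Antagomir-SCR of 0.25 (SE 0.078, adjusted p = 0.73), with both Antagomir-31 arrays above both Antagomir-SCR arrays. Jun 1417409_at had 0.26 (SE 0.090, adjusted p = 0.85) with the same separation, and Jun 1448694_at had 0.13 (SE 0.090, adjusted p = 1.0) with overlapping arrays. Egr2 had -0.21 (SE 0.10, adjusted p = 1.0). The treatments did not overlap for 4 of the 19 probe sets with Antagomir-31 higher and 3 with Antagomir-31 lower, against 14.6% and 14.3% of all probe sets. The lower ones were both probe sets of Egr2 and 1436329_at of Egr3.

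At 48 h, 0 of 19 probe sets were called and 0% of all 17590, with 1 and 1065 (6.05%) at an unadjusted p under 0.05. Egr1 had a log2 fold change of -0.26 (SE 0.086, adjusted p = 0.74). Jun had 0.17 (SE 0.090, adjusted p = 0.86), and the other brightest probe sets ranged between -0.12 for Egr2 and 0.071 for Junb. Antagomir-31 arrays lay above the Antagomir-SCR arrays for 3 probe sets and below them for 3, against 14.4% and 18.6% of all. The summed markers also separated the treatments at 48 h in 3 lists, with 22755 to 23093 for Antagomir-31 and 23192 to 23411 for Antagomir-SCR in T cell and Th1 markers, 129.7 to 130.0 and 123.2 to 123.7 in dendritic cell markers, and 96.3 to 97.7 and 93.4 to 93.6 in CD8 T and NK cell markers. Their part in the values of the early genes was not tested.

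At 72 h, 2 of the 19 probe sets were called, Egr1 higher and Nr4a2 1450750_a_at lower with Antagomir-31, beside 0.864% of all fitted probe sets, 0.313% higher and 0.551% lower. As this contrast was known when the genes were chosen, the counts are printed side by side and nothing is read from them. The log2 fold change of Egr1 was 0.48 (SE 0.070), with 42.3 ± 1.1 under Antagomir-31 and 30.4 ± 2.9 under Antagomir-SCR as mean intensities (SD, n = 3 each). It was 0.47 after quantile normalization and 0.52 after centring on the median. The call of Egr1 was lost when replicate 2 or 3 of Antagomir-31 or replicate 2 or 3 of Antagomir-SCR at 72 h was left out, with fold changes between 0.43 and 0.56 on the log2 scale without any 1 array.

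Nr4a2 gave opposite signs by probe set. The log2 fold change at 72 h was -0.32 (SE 0.065) for 1450750_a_at, with 90.3, 85.8 and 96.4 for Antagomir-31 against 116.9, 115.6 and 106.9 for Antagomir-SCR. It was -0.21 (SE 0.068) for 1455034_at, -0.17 for 1450749_a_at and -0.13 for 1447863_s_at, whereas 1433422_at, which was not called over time, had 0.21 (SE 0.071). The call of 1450750_a_at was lost without any 1 of 11 arrays, all but both Antagomir-31 arrays at 48 h and replicate 4 of Antagomir-31 at 72 h, and after quantile normalization or centring.

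Junb had a log2 fold change of -0.26 (SE 0.071) at 72 h, with all Antagomir-31 arrays below the Antagomir-SCR arrays, and was not called, although it was with a variance trend and without replicate 4 of Antagomir-31 at 72 h. Fosl2 had -0.15 (SE 0.064) and Nr4a3 0.17 (SE 0.071), both with overlapping arrays. The log2 fold changes of the remaining genes in their brightest probe sets were 0.12 for Egr3, 0.077 for Fos, 0.056 for Jun, 0.036 for Egr2 and -0.021 for Nr4a1, whose sign turned after quantile normalization and after centring on the median. In all, arrays did not overlap for 3 probe sets with Antagomir-31 higher and 4 with Antagomir-31 lower, against 9.43% and 14.9% of all. At 72 h array upper quartiles lay within 129.1 to 130.0 under Antagomir-31 and within 131.4 to 133.2 under Antagomir-SCR, without overlap. Array medians lay within 28.30 to 28.42 under Antagomir-31 and within 27.92 to 28.25 under Antagomir-SCR, also without overlap. The summed markers of all 5 cell lists overlapped between the treatments at 72 h.

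**Figure D4:**
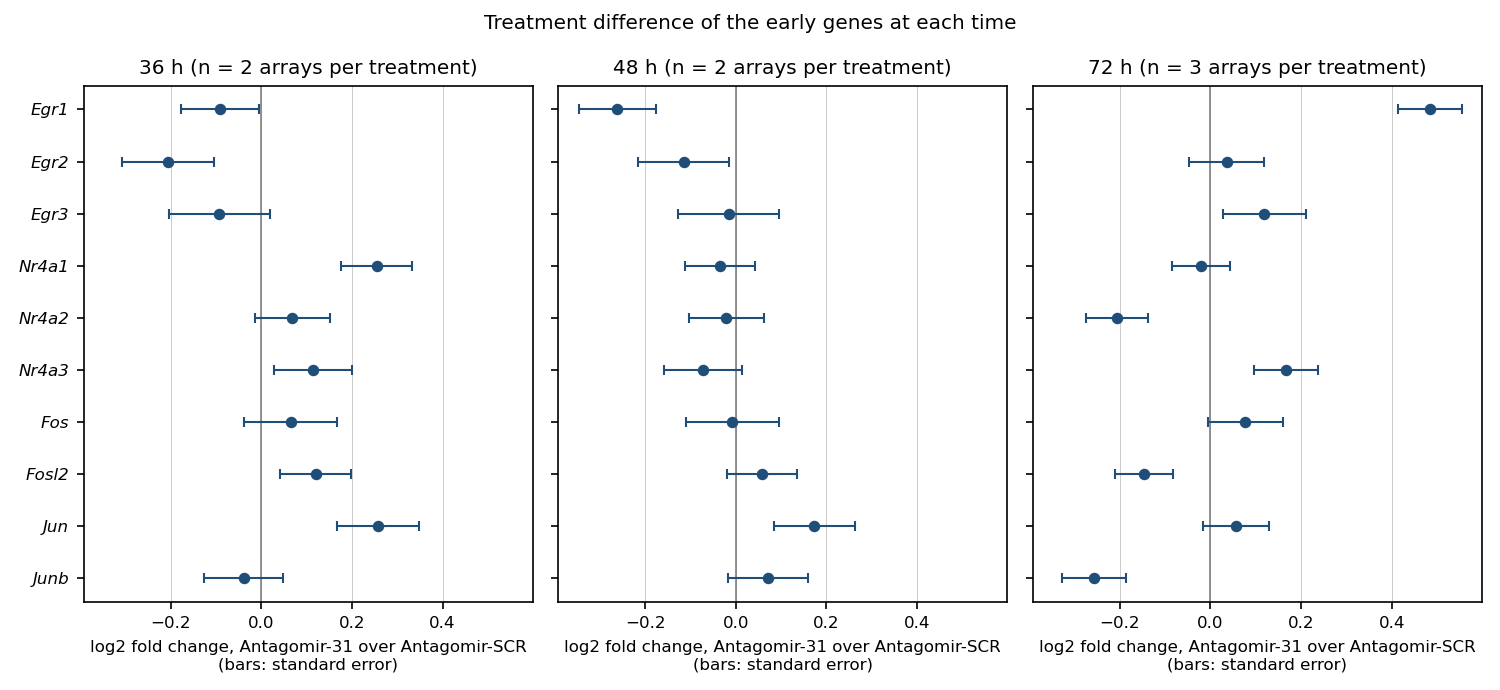
Log2 fold change of Antagomir-31 over Antagomir-SCR for the brightest probe set of each early gene at 36 h, 48 h and 72 h, with the standard error of the limma fit as bars. Egr1 is at -0.26 at 48 h and at 0.48 at 72 h, and no other gene exceeds 0.26 in size at any time.

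The effect on Egr1 at 72 h exceeded that at 48 h by 0.75 (SE 0.11) and that at 36 h by 0.58 (SE 0.11) on the log2 scale. Junb differed by -0.33 (SE 0.11) between the effects at 72 h and 48 h, and Nr4a2 1450750_a_at by -0.34 (SE 0.10). Of the 19 probe sets 0 were called for 72 h minus 48 h, where 0.0171% of all were, and 0 for 72 h minus 36 h, where 0.00569% were. With an unadjusted p under 0.05 in limma there were 4 of the 19 and 1731 of all (9.84%) for 72 h minus 48 h. For 72 h minus 36 h there were 5 and 1985 (11.3%). Both contrasts hold the difference at 72 h, which was known when the genes were chosen. The counts are printed side by side and nothing is read from them.

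The likeness of other genes to Egr1 was described by Pearson's r of the brightest probe sets over the 14 arrays after the mean of each time was taken off, which leaves differences between the treatments and between single arrays. Of 10368 other genes, the most alike were Gzmg (0.90), a granzyme, Bscl2 (0.90), which encodes seipin, Slc25a46 (0.88), a protein of the outer mitochondrial membrane, Fam102b (0.88) and Metap2 (0.88), a methionine aminopeptidase. Within the early genes r with Egr1 was 0.52 for Nr4a3, 0.36 for Egr2, 0.32 for Fos and 0.23 for Egr3. It was -0.11 for Jun, -0.16 for Nr4a1, -0.62 for Fosl2, -0.65 for Nr4a2 and -0.73 for Junb. Both signs occurred within the Nr4a genes and within the AP-1 genes. The largest treatment difference of Egr1, 0.48 on the log2 scale at 72 h, enters r and was known when the genes were chosen. All values of r are therefore a description.

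Among the genes around the early genes, 1 of 22 probe sets of the SRF, ternary complex factor and ERK list was called lower at 72 h, with 0 higher, beside 0.551% of all probe sets lower. This was Crem (1449037_at), a cAMP responsive factor and neither SRF nor a ternary complex factor. Its mean was 749.5 for Antagomir-31 and 927 for Antagomir-SCR, with a log2 fold change of -0.31 (SE 0.057, adjusted p = 0.038 in limma). In the TCR-induced targets of EGR and NR4A factors 1 of 25 was called higher and 0 lower, beside 0.313% of all higher. It was Havcr2, the receptor TIM-3 (1451584_at), with means of 1129 for Antagomir-31 and 960.5 for Antagomir-SCR and 0.23 (SE 0.043, adjusted p = 0.037 in limma). These lists were chosen with earlier results of these data known, and the named probe sets had the smallest p at 72 h. Their calls are therefore a description. Of all fitted probe sets, 152 were called at 72 h, and 8 with only the arrays of 72 h. Not called were Nab2 with -0.21 (adjusted p = 0.12), the immediate early gene Ier3 with -0.29 (adjusted p = 0.062), the costimulatory receptor Tnfrsf9 with -0.21 (adjusted p = 0.057), the death ligand Fasl with -0.20 (adjusted p = 0.064), the AP-1 subunit Jund with 0.29 (adjusted p = 0.21) and Srf with -0.18 (adjusted p = 0.20). At 36 h and 48 h, 0 probe sets of these 5 lists were called. Their median log2 fold changes at 72 h lay between -0.051 and 0.095, against -0.013 over all probe sets.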

How the data were processed

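Total RNA of murine Th1 rep cells was hybridized to 14 Affymetrix Mouse 430_2 arrays. According to the submitters' processing notes and the study's methods, the authors read them with GCOS and normalized them by RMA in the R package affy (no version stated). Deposited were linear intensities of 45101 probe sets. Of these, 64 were controls, 34945 had 1 gene symbol in the platform annotation, 932 several and 9160 none. Those with 1 symbol were kept. Of the symbols, 34741 were looked up in RefSeq and 0 updated.

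From the deposited intensities log2 was computed, and 17590 probe sets with a mean of at least 5 were fitted in limma 3.58.1 (R 4.3.3, Python 3.11.15) with 6 groups of treatment and time and contrasts within each time and between the effects. P-values were adjusted by Benjamini-Hochberg over all 17590, with calls at 0.05. The fit was tested on simulated data. The number of arrays limits the precision, with standard errors of 0.062 to 0.11 for a treatment difference in the early genes. Differences between times were called without a test, as the report states. The brightest probe set of a gene is the one with the highest mean log2 intensity. The members and lists were chosen with earlier results of these data known. Named were all probe sets of the 10 genes, from each other list up to 4 probe sets with the smallest p at 72 h and the 2 with the largest difference between times, and the 5 genes most like Egr1. Markers named beside them, among them Csf1r, Cd79a and Cd79b, were chosen after their values were seen.

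Samples with the same number in both treatments were checked for pairing. Correlations of their deviations were 0.075 at 36 h, -0.18 at 48 h and -0.018, -0.013 and 0.15 at 72 h, so that the numbers were not taken to pair samples. No pair of arrays held identical values, and replicate arrays correlated at 0.997 to 0.998. Values of replicate 4 of Antagomir-SCR at 72 h carried more decimals than those of the other arrays, such as 33.5741 for Egr1. The reason is not known here. Alternatives changed the filter, the unit (genes), the normalization, the spread, the block and the arrays used. Present and absent calls and the RNA sequencing of the study were not used here.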

Additional observations from a re-analysis of the deposited data

Results flagged for a closer look

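The log2 fold change of Egr1 was -0.26 at 48 h, not called (adjusted p = 0.74 in limma), and 0.48 at 72 h. Both Antagomir-31 arrays were below both Antagomir-SCR arrays at 48 h, as for 18.6% of all probe sets. All 3 were above all 3 at 72 h, as for 9.43% of all. The effect at 72 h minus the effect at 48 h was 0.745738 on the log2 scale (SE 0.11, interaction term of limma) and was not called over all probe sets. As the genes were chosen with the values at 72 h known, this is a description.

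For Nr4a3 (1438796_at), both Antagomir-31 arrays lay above both Antagomir-SCR arrays at 36 h and below both at 48 h. The values were 2015 and 2049 for Antagomir-31 against 2003 and 1761 for Antagomir-SCR at 36 h. They were 1623 and 1727 for Antagomir-31 against 1765 and 1755 for Antagomir-SCR at 48 h. Such separation was seen for 14.6% of all probe sets at 36 h and 18.6% at 48 h. The log2 fold change was 0.11 (SE 0.087) at 36 h and -0.073 (SE 0.087) at 48 h, and neither was called. The effect at 48 h minus the effect at 36 h was -0.186362 on the log2 scale. This difference was not tested.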

How the results depend on the processing

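The count of 7 early genes lower at 72 h than at 48 h was 7 without any 1 array and stayed within 1.5 times on each single scale. Each of the 10 genes stayed uncalled between the treatments at 36 h and 48 h under all alternatives. At 36 h the 2 probe sets called in all became 1 under the stricter filter (at least 6 as mean log2) and 0 after centring on the median, by gene (either rule), with no filter, with only the arrays of that time, with the replicate block and with a variance trend. At 72 h the 152 called became 422 with a mean log2 of at least 6, 589 with a trend, 39 with the replicate block, 13 with no filter and 8 with only the arrays of 72 h. Their split into 55 higher and 97 lower became 123 and 69 after centring on the median, which moved the median of all probe sets from -0.013 to 0.019, and 76 and 74 after quantile normalization. The 2 probe sets of the early genes called at 72 h became 1, Egr1, after centring, quantile normalization, with the replicate block and by gene (either rule), 0 with no filter and with only the arrays of 72 h, and 3 with a trend, which added Junb. Junb was also called without replicate 4 of Antagomir-31 at 72 h. For 72 h minus 48 h the 3 called became 6 after centring, 5 with a mean log2 of at least 6, 16 with a trend and 0 with no filter, with only the arrays of both times and with the replicate block. The 0 of the early genes became 1, Egr1, after centring, by gene (either rule), with the variance trend and with the stricter filter, a mean log2 of at least 6. For 72 h minus 36 h the 1 called became 3 by the highest probe set on each array and with the stricter filter, 2 by the probe set with the highest mean, 15 with a trend and 0 with no filter and with the replicate block. Without any 1 array, the calls ranged from 0 to 2 at 36 h, 0 to 39 at 48 h, 6 to 564 at 72 h (0 to 3 of the early genes), 0 to 9 for 72 h minus 48 h (0 to 1 of the early genes) and 0 to 41 for 72 h minus 36 h. A crossed pairing of the replicates at 48 h, chosen after seeing the data, gave 0 calls, as did the replicate block there. The block changed no other call than those named here. Several log2 fold changes of early genes close to 0, all uncalled, changed sign. That of Nr4a1 at 72 h, -0.021, was 0.00184 after quantile normalization and 0.011 after centring on the median. Without any 1 array, at 36 h Fos ranged from -0.043 to 0.17 and Nr4a2 (1450750_a_at) from -0.025 to 0.12. At 48 h the ranges were -0.15 to 0.12 for Egr3, -0.14 to 0.066 for Nr4a1, -0.081 to 0.040 for Nr4a2 (1455034_at) and -0.079 to 0.12 (1450750_a_at), -0.056 to 0.040 for Fos, -0.00344 to 0.12 for Fosl2 and -0.029 to 0.17 for Junb. At 72 h they were -0.061 to 0.10 for Egr2, -0.055 to 0.033 for Nr4a1 and -0.00214 to 0.17 for Fos. Between times, the 8 probe sets lower at 48 h than at 36 h became 13 on deposited values alone, and 3388 by percentile rank alone, where 3520 were higher, among them 4 brightest probe sets of early genes lower and 1 higher. The 379 lower at 72 h than at 48 h became 668 on quantile-normalized values alone, 701 after centring and 5201 by percentile rank alone. The 483 higher became 1398 on deposited values alone (1 early gene, Junb) and 5881 by percentile rank alone (2 early genes). Without any 1 array these counts were 8 to 12 lower and 10 to 15 higher for 48 h minus 36 h, and 377 to 387 lower and 466 to 508 higher for 72 h minus 48 h. The causes of these changes were not tested, beyond the fewer or more probe sets and arrays that each alternative uses. Values near the filter, such as Egr1 at 72 h, are limited by background signal, which was not measured here.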
